A study of Mus musculus with 4 samples.

Results

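The open chromatin described here lies on mouse chromosome 13 on either side of Esm1, the gene deleted in the knockout hosts. ATAC-seq peaks of 4 libraries that overlapped by 1 bp or more were merged, and merged regions overlapping chromosome 13 from 103200000 to 120421639 (mm10) were kept. They number 866 of 122166 merged regions, with 583 before Esm1 and 283 after it. The comparison regions were 4907 on the rest of chromosome 13 and 113967 on the other autosomes. The first kept region, 103199874 to 103200529, crosses the start of the interval.

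ATAC-seq marks DNA that the Tn5 transposase can reach, and its peaks are open promoters and other regulatory DNA. The libraries come from tumors of mG7080, a murine glioblastoma line from tumors of genetically altered mice, injected into the brains of female mice of the C57BL/6 strain (C57BL/6J in the methods). The mice were aged 6 to 8 weeks by the methods and 8 to 12 weeks by the reporting form. Both groups received the same cells, and the 2 WT hosts carried Esm1 while the 2 KO hosts lacked it. KO mice were a gift and WT mice were purchased, so genotype and breeding source cannot be told apart. The labels name resected tumor tissue and the methods freshly isolated tumor cells, so the share of host cells in a library is unknown. The injected line keeps its own copy of the chromosome.

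Esm1 encodes Endocan, a proteoglycan released by endothelial cells at growing vessel tips. In mice made by gene targeting, DNA linked to the targeted gene can stay that of the original stem cells even after many backcrosses, so the flanks of a deleted gene are often looked at apart. The stem cells and backcrosses behind this knockout are not given in the sources used here. The neighbourhood holds granzyme genes, a cluster of genes for multiciliated cells and many housekeeping genes.

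The sequences printed here are the 200 bases around the summit of the tallest peak in 6 regions that the results turn on, from the GRCm38 plus strand. Capitals mark 13 motif words searched on both strands within 100 bp of a summit, such as the GC box GGGCGG, the E-box CAGCTG and the octamer ATGCAAAT. The first 3 are the strongest regions open in 1 group and not in the other, the fourth is the tallest peak outside protein-coding genes, the fifth is the nearest region before Esm1 open in all libraries, and the sixth is the tallest of all 866.

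Parp8 intron, WT-only, chr13:116879951-116880150: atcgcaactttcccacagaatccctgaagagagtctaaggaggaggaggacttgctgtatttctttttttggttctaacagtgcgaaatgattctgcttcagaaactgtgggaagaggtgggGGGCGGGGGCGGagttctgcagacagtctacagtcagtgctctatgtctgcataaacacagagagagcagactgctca

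Ercc8 intron, WT-only, chr13:108191386-108191585: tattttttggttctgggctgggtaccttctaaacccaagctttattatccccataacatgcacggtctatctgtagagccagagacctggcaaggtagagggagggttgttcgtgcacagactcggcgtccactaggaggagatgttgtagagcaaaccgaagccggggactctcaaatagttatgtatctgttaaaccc

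Near Depdc1b, KO-only, chr13:108293392-108293591: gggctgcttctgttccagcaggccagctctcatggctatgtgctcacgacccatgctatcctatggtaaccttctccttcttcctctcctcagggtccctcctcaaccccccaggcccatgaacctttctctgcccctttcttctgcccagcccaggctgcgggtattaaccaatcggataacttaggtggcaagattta

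Start of Zswim6, all 4 libraries, chr13:107890074-107890273: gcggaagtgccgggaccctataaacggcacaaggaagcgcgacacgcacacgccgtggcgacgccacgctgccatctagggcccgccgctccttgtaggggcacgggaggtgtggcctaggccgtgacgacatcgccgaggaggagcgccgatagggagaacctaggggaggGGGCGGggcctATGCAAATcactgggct

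Before Esm1, all 4 libraries, chr13:113130022-113130221: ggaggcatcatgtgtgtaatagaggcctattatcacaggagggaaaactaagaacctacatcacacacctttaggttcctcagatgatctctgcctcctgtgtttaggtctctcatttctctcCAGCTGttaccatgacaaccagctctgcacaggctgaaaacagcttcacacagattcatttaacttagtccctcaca

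Tmem267 intron, all 4 libraries, chr13:119598992-119599191: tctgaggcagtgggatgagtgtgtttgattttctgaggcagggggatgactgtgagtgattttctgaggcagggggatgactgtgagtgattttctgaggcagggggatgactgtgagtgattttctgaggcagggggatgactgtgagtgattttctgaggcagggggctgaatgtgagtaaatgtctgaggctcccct

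Peak height is the number of overlapping read ends at the summit, and a height over genome background is that number divided by the lowest background of its library, which puts libraries of unequal depth on a shared scale. The libraries held 63000 and 100088 peaks in WT and 82975 and 85418 in KO. The genome background was 4.41, 6.85, 6.03 and 6.71 read ends in WT replicates 1 and 2 and KO replicates 1 and 2, so WT replicate 1 was the shallowest. Of 8 neural and glioma marker genes, 6 to 8 had a promoter peak per library. Endothelial markers had 1 or 2 of 6, with Pecam1, Cdh5 and Tek at 0 in all libraries, while microglial markers had 0 or 1 of 6 and T cell markers 0 of 5.

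The first question was how many peaks each group had in this interval. WT replicates 1 and 2 had 422 and 711 peaks there, against 590 and 572 for the KO replicates. As a share of autosomal peaks the WT libraries had 0.683% and 0.724%, and the KO libraries 0.725% and 0.684%. The groups overlapped, with a mean of 0.703% in WT and 0.705% in KO. An exact two-sided permutation test over the 4 libraries gave p = 0.667, where 2 against 2 libraries cannot go below 0.333. Local background, the read density around a peak, had medians of 1.11 and 1.06 times the genome background for WT against 1.07 and 1.03 for KO (exact permutation p = 0.667).

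At Esm1 itself (ENSMUSG00000042379.8, 113209659 to 113218098, plus strand) no library had a peak over the gene or 1000 bp on either side. Esm1 lies within the annotated span of Gzmk, a granzyme gene on the minus strand (113171608 to 113225908). The annotated Gzmk start 7.81 kb past the end of Esm1 was open in all 4 libraries with 45 and 85 read ends for WT and 72 and 58 for KO. Over genome background these were 10.2, 12.4, 11.9 and 8.64, and the groups overlapped. The region closest to Esm1 was a weak one 5.91 kb past its end (113224013 to 113224420), called in WT replicate 2 and KO replicate 2 at 24 and 26 read ends. Before the gene, the closest region lay 34.8 kb away in the Gzmk span (113174106 to 113174833). It had 47 read ends in WT replicate 2, against 32 and 36 in the KO libraries, with no peak in the shallower WT replicate 1. Its middle lay 6.43 kb from another annotated Gzmk start, which had no peak over it in any library. The nearest region before Esm1 open in all libraries lay 79.2 kb away at 113129980 to 113130423, between protein-coding genes. It reached 17 and 32 read ends for WT and 19 and 22 for KO. Over genome background both WT libraries, at 3.85 and 4.67, were above both KO libraries, at 3.15 and 3.28.

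Other genes that start within 500 kb of Esm1 mostly had open promoters in both groups. Mtrex and Dhx29, RNA helicases that share a promoter, had the tallest there, at 25.8, 20.7, 21.1 and 19.96 times the genome background in WT replicates 1 and 2 and KO replicates 1 and 2. Plpp1, a lipid phosphatase, Snx18, a sorting nexin, Ccno, a cyclin-like protein of multiciliated cells, Cdc20b, Gpx8 and Hspb3, a small heat shock protein, were also open in all 4 libraries. Gzma, a granzyme of cytotoxic lymphocytes, had no promoter peak in any library. BC067074 had weak peaks in WT replicate 2 and KO replicate 1, at 21 and 19 read ends. Mcidas, a regulator of multiciliated cells, had a promoter region present in both WT libraries and neither KO library (112993527 to 112993907), at 26 and 27 read ends. A second weak region over the same promoter, 112994227 to 112994564, was called in WT replicate 1 and KO replicate 1, so the Mcidas promoter as a whole had a peak in WT replicates 1 and 2 and KO replicate 1.

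**Figure D1:**
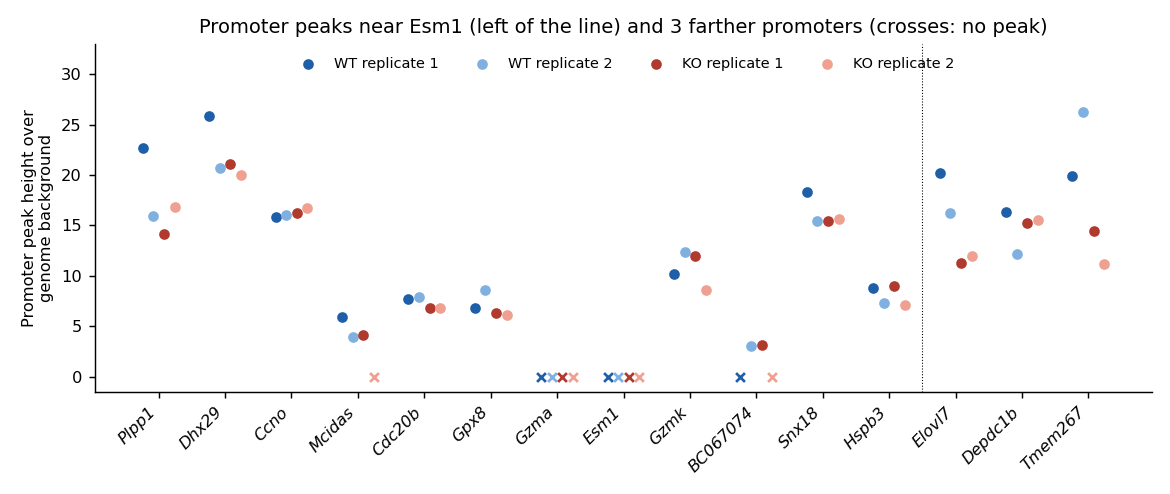
Promoter peak height divided by the genome background of the library (vertical axis, no unit) for 12 genes that start within 500 kb of Esm1, in their order along the chromosome, and 3 farther genes to the right of the dotted line, with 1 point per library and crosses at 0 for libraries with no peak. Esm1 and Gzma have no peak in any library, and at Elovl7 and Tmem267 both WT points lie above both KO points.

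WT-only regions, which have a peak in both WT libraries and neither KO library, numbered 18 of 866 (2.08%, exact Clopper-Pearson 95% interval 1.24 to 3.27%). Over all merged regions the share was 1.45%, and on the rest of chromosome 13 it was 1.37%. The other 18 autosomes ranged from 0.953% on chromosome 7 to 1.90% on chromosome 18, so each lay below the point value around Esm1, with the highest inside its interval. KO-only regions numbered 15 (1.73%, interval 0.973 to 2.84%), beside 1.66% over all merged regions and 1.67% on the rest of chromosome 13. The KO-only share of 4 autosomes was higher, up to 2.69% on chromosome 15. Regions open in all 4 libraries were 316 (36.5%, interval 33.3 to 39.8%), against 39.4% over all merged regions and 37.8 to 41.6% per autosome. The intervals cover counting error only, and regions of the same library are not independent.

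**Figure D2:**
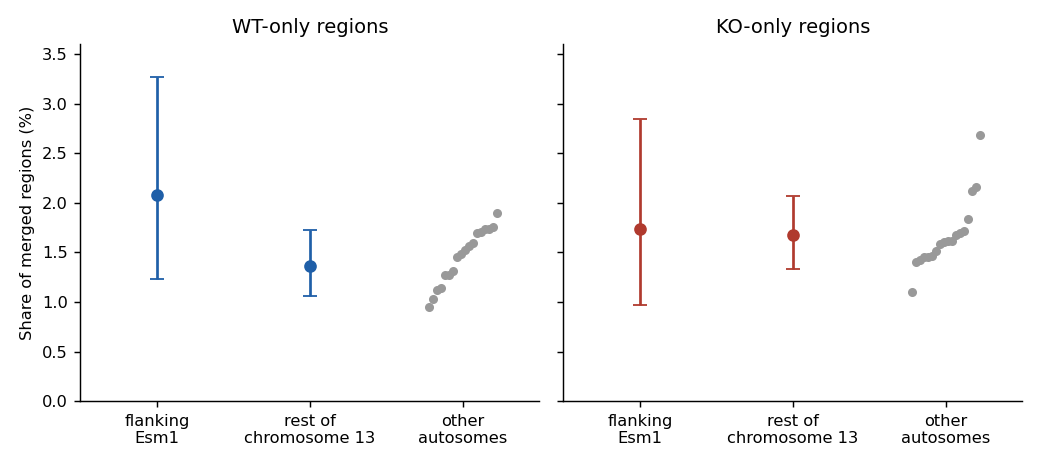
Share of merged regions (vertical axis, percent) that were WT-only (left) or KO-only (right) around Esm1 and on the rest of chromosome 13, with exact 95% intervals as bars, and on each of the 18 other autosomes as grey points. The WT-only share of 2.08% lies above all grey points, with an interval that reaches down to 1.24%, and the KO-only share of 1.73% lies among them.

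The WT-only share depended on how peaks were compared. With the same 63000 peaks kept per library it was 4.78% (30 of 628), beside 2.04% over all regions and 1.41 to 2.496% per other autosome. With peaks of −log10 q of at least 5 it was 3.11% (19 of 610), beside 1.64% and 1.11 to 2.10%. The members changed with the setting. Of the 30 WT-only regions at equal numbers of peaks 5 overlapped one of the 18, and of the 19 at the stricter threshold 3 did. KO-only shares in the same comparisons were 2.87%, beside 2.33% and 1.79 to 2.94% per other autosome, and 2.46%, beside 1.6% and 1.26 to 2.26%. At the stricter threshold both shares were thus above those of the other autosomes.

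Of the WT-only regions 14 lay before Esm1 and 4 after it, and the last 3.54 Mb of the interval held none. Within 1 Mb of the gene there were 3 WT-only regions of 150 (2.00%) and 0 KO-only regions, and a count of 0 of 150 allows a share of up to 2.00% by 3 counts of the total, or 2.43% by the exact interval. From 1 to 2 Mb there were 2 and 2 of 89 (2.25% each), and from 2 to 5 Mb 8 and 4 of 279 (2.87% and 1.43%). Beyond 5 Mb there were 5 and 9 of 348 (1.44% and 2.59%). Over all merged regions the shares were 1.45% and 1.66%. The 3 within 1 Mb were the Mcidas promoter, a Dhx29 intron (112938069 to 112938326) at 18 and 24 read ends, and a region 20.6 kb from the start of Snx18 (113639017 to 113639286) at 20 and 29. With equal numbers of peaks the same 1 Mb on either side held 9 WT-only (8.33%) and 0 KO-only regions of 108. The shares over all regions at that setting were 2.04% and 2.33%. When a library had to cover at least 50% of a region, the counts within 1 Mb were 4 WT-only (2.67%) and 2 KO-only (1.33%) of 150. Over all regions the shares were then 1.79% and 2.04%.

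**Figure D3:**
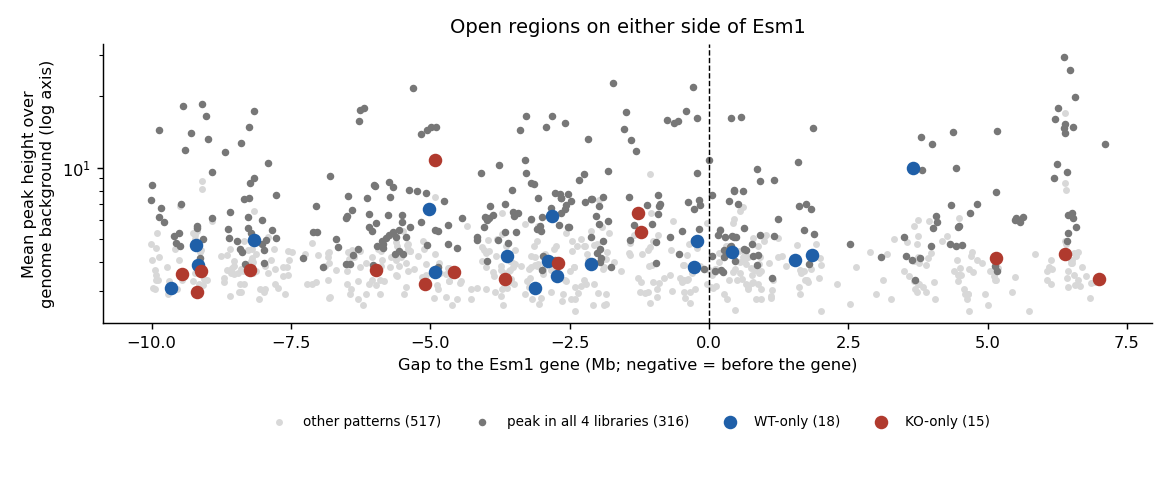
Mean peak height over genome background (vertical axis, log scale, no unit, over the libraries with a peak) of the 866 regions against their gap to the Esm1 gene (horizontal axis, Mb), with WT-only regions in blue, KO-only regions in red, regions open in all libraries in dark grey and others in light grey. The 18 blue points end 3.54 Mb before the end of the interval, no red point lies within 1 Mb of the gene, and the tallest of them are the blue point of Parp8 and the red point near Depdc1b.

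Of the 18 WT-only regions 2 (11.1%) had folds above the middle of both WT peak lists, beside 65 of 1768 (3.68%) over all regions. The strongest lay in an intron of Parp8, a member of the ADP-ribosyltransferase family (116879688 to 116880329), at 37 and 79 read ends or 8.38 and 11.54 times the genome background. The other lay in an intron of Ercc8, which acts in transcription-coupled DNA repair (108191103 to 108191693), at 28 and 48 read ends or 6.34 and 7.01 times. Next came regions in introns of Pde4d, a cAMP phosphodiesterase (109592527 to 109593169, 22 and 24 read ends), and of Nln, a peptidase that cleaves neurotensin (104048855 to 104049201, 18 and 25), and 1 region 60.6 kb from the start of Mocs2, an enzyme of molybdenum cofactor synthesis (114757483 to 114757785, 18 and 28). These are close to the lowest heights called, which were 13 and 16 read ends in the WT libraries.

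Of the 15 KO-only regions 1 (6.67%) had folds above the middle of both KO lists, beside 94 of 2025 (4.64%) over all regions. It lay 22.9 kb from the start of Depdc1b, a DEP domain gene of dividing cells (108292909 to 108293913), at 66 and 71 read ends or 10.95 and 10.6 times the genome background. Just before it sat a weak WT-only region (108290990 to 108291418), at 19 and 20 read ends. A region 135 kb from the start of Map3k1, a kinase of the JNK pathway (111943407 to 111944647), had 23 and 61 read ends in the KO libraries. Regions 101.2 kb from Plk2, a polo-like kinase (110495964 to 110496553, 26 and 24), 209 kb from Kif2a, a kinesin (107230968 to 107231262, 22 and 25), and in an intron of Pde4d (108636143 to 108636754, 22 and 24) were weaker. The regions at Parp8, Ercc8, Depdc1b and Plk2 kept their full split between groups in each of 4 other ways of calling or overlapping peaks, and the other 6 of the 10 in 2 or 3 of the 4. Leaving out a library cannot end such a split.

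Heights could be compared where all 4 libraries had a peak. limma on log2 height, centred on the median of each library and adjusted by the Benjamini-Hochberg method over 48089 regions, called 0 of the 316 regions around Esm1. Over all regions it called 18 higher in KO (0.0374%) and 1 lower (0.00208%). At an unadjusted p under 0.05 there were 11 higher (all regions 1.98%) and 9 lower (all regions 1.1%) of 316. The lowest adjusted p was 0.486, for a region between protein-coding genes at 107642133 to 107642792. It had 23 and 19 read ends for WT against 31 and 58 for KO. The KO minus WT difference in log2 height had a median of -0.04 around Esm1 and -0.0041 over all regions.

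Without a test, the order of heights region by region leaned to WT, while the library medians of the groups overlapped. Both WT libraries were above both KO libraries in 61 of 316 regions (19.3%), beside 13.3% over all regions and 8.82 to 18.1% on the other autosomes. Both KO libraries were above both WT libraries in 34 (10.8%), beside 12.8% over all regions. Within 1 Mb of Esm1 the counts were 17 of 58 (29.3%) and 2 (3.45%). From 1 to 2 Mb they were 2 and 2 of 32, from 2 to 5 Mb 18 and 17 of 94, and beyond 5 Mb 24 and 13 of 132. With heights centred on the genome background, a scaling added after seeing the data that moves the median of all regions from -0.0041 to -0.0975, the counts were 92 and 18 of 316 (25.1% and 6.21% over all regions) and within 1 Mb 22 and 2 of 58. The median log2 difference within 1 Mb was -0.08.

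The 17 regions near Esm1, singled out after their values were seen, covered both sides of the gene. They included the promoters of Ankrd55, Cdc20b and Gpx8 and an exon of Mcidas. The others lay in introns of Ankrd55, Slc38a9, Dhx29, BC067074 and Arl15 or, for 5 regions, between protein-coding genes. At the Mcidas exon (112998351 to 112999292) heights over genome background reached 11.3 and 11.4 for WT against 7.47 and 7.75 for KO, a log2 difference of -0.49 with a standard error of 0.23 (limma adjusted p = 1.00). At the Dhx29 intron (112941850 to 112942330) they reached 9.06 and 7.01 for WT against 5.64 and 4.92 for KO. KO was higher at 2 regions, the Ccno promoter (15.9 and 16.1 in WT, 16.3 and 16.7 in KO) and a region 2.73 kb from the start of Hspb3 (6.12 and 7.30 in WT, 8.80 and 9.54 in KO).

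**Figure D4:**
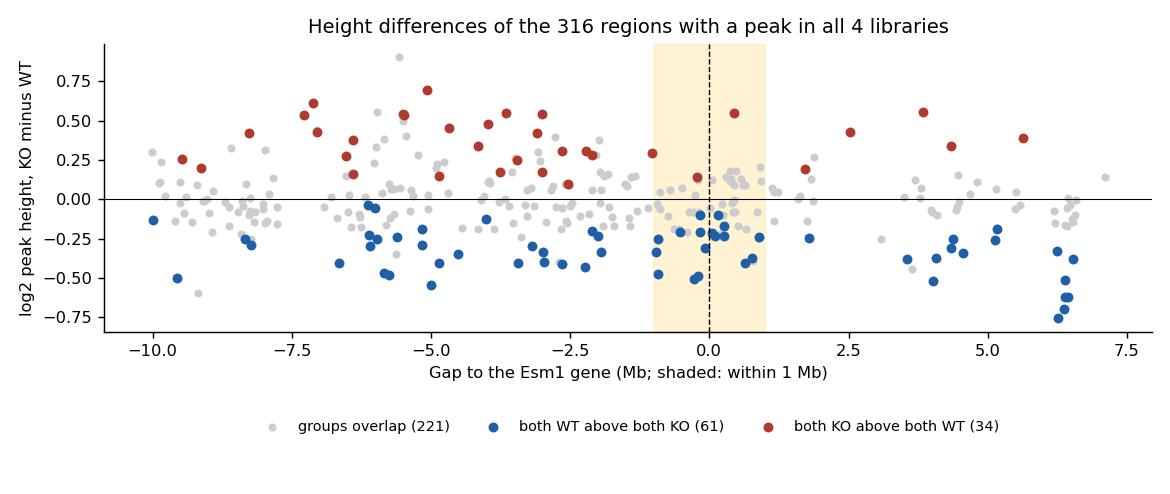
KO minus WT difference in log2 peak height (vertical axis) of the 316 regions with a peak in all 4 libraries against their gap to the Esm1 gene (horizontal axis, Mb), blue where both WT libraries were above both KO libraries, red for the reverse and grey where the groups overlapped. In the shaded 1 Mb on either side there are 17 blue and 2 red points, and the lowest points, at Tmem267, lie more than 6 Mb after the gene.

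The promoters of the interval were mostly shared. Of 93 protein-coding gene entries 71 (76.3%) had a promoter peak, beside 67.2% over all genes. Of the 71, 67 (94.4%) had one in all 4 libraries, beside 90.3% over all genes with a promoter peak. WT-only and KO-only promoters numbered 0 and 0, beside 0.197% and 0.441%. The promoters open in some libraries were Mcidas, BC067074, Il31ra, a cytokine receptor subunit with no peak in WT replicate 1, and D13Ertd608e with no peak in WT replicate 2. limma called 0 of the 67 promoters (all promoters 0.015% higher in KO and 0.0% lower), with 4 at an unadjusted p under 0.05, beside 3.94% over 13310 promoters. Among the 4, Tmem267 and 3110070M22Rik share the same peak.

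The lowest p belonged to Elovl7, a fatty acid elongase. Its promoter had 89 and 111 read ends in WT and 68 and 80 in KO, or 20.2 and 16.2 against 11.3 and 11.9 times the genome background. The log2 difference was -0.53 with a standard error of 0.11 (limma adjusted p = 0.330), and both WT libraries were above both KO libraries. Without KO replicate 1 it was called (adjusted p = 0.0123), in a fit that called 225 promoters over all genes against 2 with all libraries, and leaving out any other library called 0 promoters around Esm1. The Elovl7 start lies 23.0 kb from the WT-only region in Ercc8, and the next gene along, Depdc1b, with the KO-only region before it, had promoter heights over genome background of 16.3 and 12.1 for WT against 15.3 and 15.5 for KO.

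Genes grouped by function were mostly open in both groups. Over all protein-coding genes, 13310 of 21951 had a promoter peak in all libraries. Of 16 genes around Esm1 13 were open in all libraries, and Ddx4 and Gzma in none. Signalling genes, such as Map3k1 and Il6st, had 12 of 14 open in all libraries, cell division and cilia genes, such as Plk2 and Kif2a, 7 of 8, and genes of RNA, translation and DNA repair, such as Ercc8 and Pelo, 14 of 15. Mitochondrial genes had 6 of 6 entries open, Nnt counting as 2 and Dimt1 being counted among the RNA genes as well. Neural genes, such as Rab3c and Htr1a, had 8 of 8. The list of adhesion, matrix and lipid genes, which was also given Mocs2 and Sgtb, had 9 of 10, the exception being Esm1. Among lymphocyte and myeloid genes 1 of 5, Gzmk, was open in all libraries, by its start past the end of Esm1 only. Gapt, Gzma and Ccl28 were open in none. limma called 0 promoters in each of these lists, and the median log2 difference ranged from -0.10 for neural genes to 0.03 for cell division and cilia genes, beside -0.0049 over all promoters.

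A run of regions with higher peaks over genome background in WT lay near the far end of the interval, at Tmem267. It was chosen after the values were seen. Tmem267 encodes a transmembrane protein. Its promoter, shared with 3110070M22Rik (119487593 to 119489393), had 88 and 180 read ends in WT and 87 and 75 in KO, or 19.9 and 26.3 against 14.4 and 11.2 times the genome background. The log2 difference of the promoter was -0.74 with a standard error of 0.16 (limma adjusted p = 0.368). Without KO replicate 1 the log2 difference was -0.96, with a lone KO library in the fit. As a merged region the promoter had a limma adjusted p of 0.966. With heights centred on the genome background the merged region was called (adjusted p = 0.0481, with 19 calls over all regions). With heights centred on the upper quartile, or less the local background, limma called 0 regions around Esm1. Without WT replicate 1 the log2 difference of the merged region was -0.90. WT replicate 2 was the highest library there. As folds over local background the groups overlapped at this promoter, at 6.69 and 6.50 in WT and 7.51 and 6.03 in KO.

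Farther into Tmem267, 4 regions in an intron were open in all libraries. The first (119596448 to 119597128) had 82 and 129 read ends in WT and 63 and 75 in KO, and the fourth (119601367 to 119602486) had 74 and 123 in WT and 63 and 72 in KO. The second (119597667 to 119599339) was the tallest of all 866 regions, at 36.2 and 28.2 times the genome background in WT and 26.9 and 26.5 in KO. As a fold over local background the order was reversed there, at 4.33 and 3.19 in WT and 5.21 and 4.87 in KO. In height over genome background both WT libraries were above both KO libraries at each of the 4. The median-centred log2 differences were -0.70, -0.17, -0.51 and -0.62, with standard errors of 0.24 to 0.37. limma called 0 of the 4 regions (the lowest adjusted p was 0.994).

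The local background of these 4 regions was lower in both KO libraries, with log2 differences of -0.64, -0.71, -0.73 and -0.70. Local background is the read density around a peak and these regions are neighbours, so their heights and backgrounds are not independent. The height differences in the same order were -0.70, -0.17, -0.51 and -0.62. It was 6.59 to 8.37 times the genome background in WT replicate 1, 7.04 to 9.04 in WT replicate 2, 4.27 to 5.095 in KO replicate 1 and 4.45 to 5.42 in KO replicate 2. At the promoter it was 2.79 and 3.92 in WT and 1.78 and 1.73 in KO. A local background lower in both KO libraries by at least 0.5 on the log2 scale was seen in 5 of the 316 regions, these 5, and in 44 of all 48089 (0.0915%). The 4 intron regions lie side by side between 119596448 and 119602486, so they are not separate observations in this count. The reverse was seen in 1 of the 316 and in 154 of all. The 4 intron regions ranked 13th to 22nd lowest of all 48089 by this difference. Much of their sequence is repeated: 62.6 to 81.3% of the bases of the 4 regions are marked as repeats in the reference, and the printed stretch matches itself at a shift of 31 bases in 91.1% of positions. The methods allow several placements per read, so heights in such copies are uncertain. The part of the local background in the height difference was not tested.

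**Figure D5:**
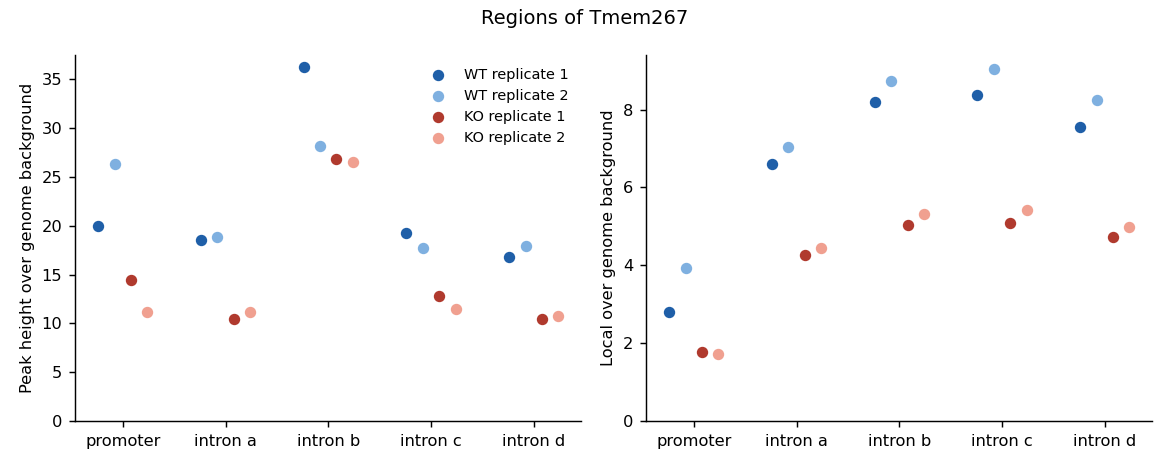
Peak height (left) and local background (right), each divided by the genome background of the library (vertical axes, no unit), at the Tmem267 promoter and the 4 intron regions in their order along the gene (a to d), with 1 point per library. Both WT points lie above both KO points at all 5 regions in both panels.

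In make-up, the regions around Esm1 lay outside protein-coding genes more often than on the other autosomes, without a test. They lay in promoters and exons less often. Their median width was 500 bp, against 510 bp on the other autosomes. By annotation 8.55% overlapped a promoter, 3.58% an exon, 39.7% an intron and 48.2% none of these, while the other autosomes had 12.6%, 6.95%, 41.4% and 39.1%. The rest of chromosome 13, at 47.4%, had nearly the same share outside protein-coding genes. Around Esm1 59 of the 417 regions in this class overlapped an annotated gene of another type. Median GC content was 45.3% around Esm1, 46.9% on the rest of chromosome 13 and 48.0% on the other autosomes. The tallest region outside protein-coding genes (107888682 to 107891482, with 114 and 130 read ends in WT and 122 and 147 in KO) covers the start of Zswim6, which the annotation lists as a processed transcript. Its printed stretch is GC-rich, at 67.5%, and holds a GC box and an octamer.

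Some motif words around summits were rarer around Esm1 than elsewhere and others more common, without a test. The AP-1 word TGANTCA was found in 12.9% of the regions around Esm1, 12.6% on the rest of chromosome 13 and 12.03% on the other autosomes. The GC box GGGCGG was in 8.66%, 10.7% and 12.2%, and the E-box CAGCTG in 13.5%, 15.5% and 16.4%. The NFI word TTGGCA was in 15.01%, 15.9% and 15.6%, and the E-box CATATG in 7.85%, 5.85% and 5.72%. The CTCF word was in 5 regions (0.577%), against 0.937% and 1.26%. The Parp8 stretch holds 2 GC boxes side by side, and the Ercc8 and Depdc1b stretches hold none of the 13 words.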

How the data were processed

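ATAC-seq peak lists of 4 tumors (2 WT and 2 KO hosts) were used, 1 list per library, grouped by the sample titles. MACS2, HOMER and mm10 are named, without versions, in the submitters' processing notes, whereas the study's methods describe Bowtie2 with up to 5 placements per read and peak calling by Genrich. The columns follow the MACS2 layout. Per the labels and layout, the authors deposited a score, a fold over local background (a ratio), and −log10 of the p-value and q-value for each peak. The files give no read counts, so depth was read from the lowest background of each library.

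Heights were recovered from the deposited fold, (height + 1)/(background + 1), and −log10 p, a Poisson tail, for all but 2 of 331481 peaks (tolerance 0.001). Peaks were merged at 1 bp. Gene models were 21951 protein-coding genes of GENCODE M21 (basic), and promoters were 1000 bp on either side of a start site. Sequence came from GRCm38.p6. limma 3.58.1 (trend, R 4.3.3) was fitted to median-centred log2 heights with no block, over all regions or promoters with a peak in all libraries and adjusted over all of them at 0.05. A gene's tallest promoter peak stood for it. Python 3.11.15, pandas 2.3.3 and scipy 1.17.1 were used, and the functions were tested on simulated data. Shares and orders have no test because regions are not replicates.

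The interval, gene lists, motif words and alternatives were chosen with earlier results of these data known. Named features were Esm1, the nearest regions, genes starting within 500 kb, the 5 WT-only and 5 KO-only regions with the highest lower percentile of fold, promoters open in some libraries and up to 4 examples per list. Others are said to be chosen after their values were seen. The labels give separate tumors, and a shared number does not pair a WT with a KO tumor, so p-values measure the spread between these 4 tumors.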

Additional observations from a re-analysis of the deposited data

How the results depend on the processing

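With the same number of peaks per library the WT-only share was 4.78% and the KO-only share 2.87%, and leaving out 1 library gave 3.47 to 17.9% and 2.73 to 17.1%, beside 3.16 to 16.2% and 2.28 to 16.04% over all regions, since WT-only and KO-only then need fewer libraries. Shares at −log10 q of at least 5, at 50% coverage, around summits and within 5 Mb of Esm1 stayed within the counting intervals. The difference in the share of autosomal peaks, KO minus WT, was 0.0013 percentage points and became -0.0148 at the stricter threshold, -0.0259 at equal peak numbers and -0.00025 for covered bases, and it ran from -0.0195 to 0.0221 without 1 library. limma called 1 region around Esm1 with genome-background centring (19 over all regions, as in the main setting), which moved the median of all regions from -0.0041 to -0.0975, and 0 to 2 without 1 library (7 to 105 over all regions; both without WT replicate 1: the Tmem267 promoter and the region at 107642133). Promoter calls were 3 with the replicate block (12 over all promoters, against 2 without it; Elovl7, adjusted p = 0.0447, and Tmem267 with 3110070M22Rik, adjusted p = 7.3e-08) and 0 to 3 without 1 library (1 to 225 over all promoters; the same 3 genes without KO replicate 1, where the lone KO library is assumed to vary like the others). Libraries of the same number deviated with a correlation of -0.341 over 48089 regions, and the labels do not pair them. The block gave 0 calls among regions. Alternatives for the order of heights were chosen after seeing the data. With genome-background centring both WT libraries were higher in 29.1% of the regions around Esm1 (25.1% over all regions) and both KO libraries in 5.70% (6.21%), and within 1 Mb in 37.9% and 3.45%. Without 1 library the shares were 29.7 to 44.9% (WT higher) and 24.1 to 34.8% (KO higher) around Esm1, beside 26.6 to 42.4% and 26.6 to 39.8% over all regions, and 39.7 to 53.4% and 13.8 to 25.9% within 1 Mb. Without KO replicate 2 the KO-higher share around Esm1, 27.8%, was above that over all regions, 26.6%. WT-higher shares within 1 Mb were above those over all regions in each of these settings, and KO-higher shares were below them. The 10 strongest split regions reach down to 18 read ends, the lowest heights called were 13 to 16, and a region below those has no value here.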

Other observations

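Open regions were unevenly spread. The megabase that starts at 113200000, with Esm1 near its start, held the most regions, 91, while the one from 115200000 to 116199999 held 8 and no protein-coding start site. At the far end of the interval a run of 12 gene entries from Tcstv1 to Tcstv3, several of them members of multicopy families, had no promoter peak in any library, and reads of such copies are hard to place.

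Regions called in 1 library numbered 251 of 866 around Esm1 (29.0%), the same share as over all merged regions (29.0%). WT replicate 2, the library with the most peaks, alone held 133 of them, WT replicate 1 held 23, and the KO libraries 37 and 58.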
